A study of Mus musculus with 6 samples.

Results

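The 36 genes described here encode the enzymes and transporters of glycolysis and lactate export, the hypoxia-inducible factors (HIFs) with their prolyl hydroxylases, and well known targets of these factors. They were taken by name from the count files of a mouse lung cancer cell line, and all 36 were listed in each of the 6 libraries. A gene was tested if its counts over all 6 libraries added up to more than 500, which held for 27 of the 36 and for 10046 of all 34745 genes. The 9 members under this limit were Egln3, Ndrg1, Slc16a3, Ldhb, Adm, Car9, Ankrd37, Pfkfb3 and Eno2, and their counts are given below. At the limit, Pfkfb4 lay just inside with 519 counts and Eno2 just outside with 440.

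The line, 889, is a murine lung cancer line of the C57BL/6 strain, grown in medium with serum. Total RNA was sequenced from 3 libraries of cells that carried Cas9 and a control sgRNA (sgcontrol) and from 3 libraries of cells that carried Cas9 and an sgRNA to kiaa1522 (sgkiaa1522). According to the methods, the kiaa1522 sgRNAs were placed in lentiCRISPRv2, and the control was another lentiCRISPR plasmid that held an sgRNA to EGFP. Cas9 was thus shared by both groups, but the plasmid named for each was not the same. Which of the kiaa1522 sgRNAs the sequenced cells held, and whether they were a pool or a clone, was not given in the sources used here, and neither was a treatment, an oxygen level or a glucose level. The study asked which genes and pathways depend on KIAA1522, and the question addressed here is whether genes of glucose breakdown and oxygen response differed between the groups.

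In glycolysis, glucose is taken up by transporters, trapped as hexose phosphate by hexokinase, committed by phosphofructokinase, split into trioses by aldolase and oxidised to pyruvate with a yield of ATP. Pyruvate either enters the mitochondrion through pyruvate dehydrogenase, which the kinase PDK1 inhibits, or is reduced to lactate by lactate dehydrogenase and exported. When oxygen is scarce the HIF alpha subunits escape prolyl hydroxylation and degradation, pair with ARNT and bind DNA at a short core sequence, and many glycolytic genes, VEGFA, BNIP3 and PDK1 are known targets. Tumour cells often keep this programme active also in the presence of oxygen.

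The libraries held between 12220001 and 18609376 counts. The targeted gene, which the files list as C77080, was not lower in the libraries labelled sgkiaa1522: it had 2214, 2404 and 2064 counts in sgcontrol and 2554, 3726 and 3667 in sgkiaa1522, and its log2 fold change (log2FC, sgkiaa1522 over sgcontrol) was 0.73 (SE 0.0569, edgeR adjusted p = 9.1e-05). RNA therefore gives no check of the knockout, and every direction here is that of the libraries labelled sgkiaa1522. Of 10 epithelial markers, 6 passed the count limit, Epcam had no more than 3 counts in any library and neither had Krt7, and the summed epithelial level was 3891 to 4617 counts per 1000000 counts (CPM) in sgcontrol and 3275 to 3522 CPM in sgkiaa1522. This sum was mostly Krt18, Krt8 and Krt19. Cdh1 fell from a mean of 56.4 to 20.6 CPM, and Napsa, Sftpb and Sftpc also had lower means. Nkx2-1 had 55.7, 59.1 and 13.6 CPM in sgcontrol and 10.9, 9.49 and 39.5 CPM in sgkiaa1522, so library 3 of each group lay nearer the other group. The summed level of 8 fibroblast markers was 467 to 486 CPM against 167 to 198 CPM, and was mostly Col1a2 (mean 424 and 154 CPM), with Dcn, Lum and Thy1 at or under 3 counts and Pdgfra and Col3a1 at no more than 7. For 7 macrophage markers it was 20.8 to 22.7 CPM against 41.6 to 48.6 CPM, with Adgre1 and Itgam at or under 3 counts. The rise came from Cd14 (mean 17.7 to 33.4 CPM) and Cd68 (19 to 23 counts against 122 to 235), while Lyz2 (2.27 to 0.925 CPM), Ptprc (0.406 to 0.103 CPM) and Csf1r (0.116 to 0 CPM) went the other way. For 6 endothelial markers it was 3.72 to 5.51 CPM against 9.42 to 11.8 CPM, a rise carried by Vwf (mean 3.23 to 9.78 CPM). The means of Pecam1 were 0.707 and 0.837 CPM, Kdr, Cdh5 and Tek had at most 5 counts in any library and lower means in sgkiaa1522, and Cldn5 was at or under 3 counts. For 7 lymphocyte markers it was at most 0.631 CPM in any library. Mitochondrial transcripts took 8.45% to 8.77% of the counts in sgcontrol and 7.12% to 7.66% in sgkiaa1522. The part of these shifts in the results below was not tested.

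Several enzymes of the lower part of glycolysis, 4 of them with near copies in the genome, were lower in sgkiaa1522, while Hk2, Hif1a and Vegfa were higher. At an adjusted p of at most 0.05 (quasi-likelihood test of edgeR, Benjamini-Hochberg adjustment over all 10046 tested genes), 12 of the 27 tested members (44.4%) were lower and 7 (25.9%) were higher, beside 26.3% of all tested genes lower and 26.3% higher. The 12 lower members were Pdk1, Pgk1, Eno1, Ldha, Hk1, Gapdh, Pkm, Aldoc, Ddit4, Bnip3l, Tpi1 and Bnip3, and the 7 higher members were Epas1, Hk2, Hif1a, Vegfa, Aldoa, Pfkm and Slc16a1. Epas1 passed the count limit only through the group in which it is high, so its place among the 7 gives no support. The other 8 tested members did not pass. In the same 12 genes every sgkiaa1522 library lay below every sgcontrol library, and in the same 7 every sgkiaa1522 library lay above, where 31.1% and 30.6% of all tested genes showed such a separation.

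The differences were mostly moderate. Past the limit given in the study's methods (another is also used in the study), which adds a log2FC of at least 1 in size to the adjusted p, stood 1 member, Epas1, which was higher, and no member was lower, beside 2.74% and 4.34% of all tested genes. By edgeR's likelihood ratio test and DESeq2 also, 0 were called lower. The 12 members lower at the adjusted p of the main test did not reach the fold limit (lowest log2FC -0.98). The median log2FC of the 27 members was -0.01, and so was that of all tested genes. The members together took 0.841%, 0.925% and 0.934% of normalized counts in sgcontrol and 0.766%, 0.765% and 0.733% in sgkiaa1522. Epas1 had 119 counts over the sgcontrol libraries and 691 over the sgkiaa1522 libraries. It passed the limit of 500 counts only through the group in which it is high, so its call had to show a difference and gives no support for the list. Pkm was the largest part of the members' sum. In a bulk sample, fewer cells that express a gene and less of its RNA per cell cannot be told apart.

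**Figure D1:**
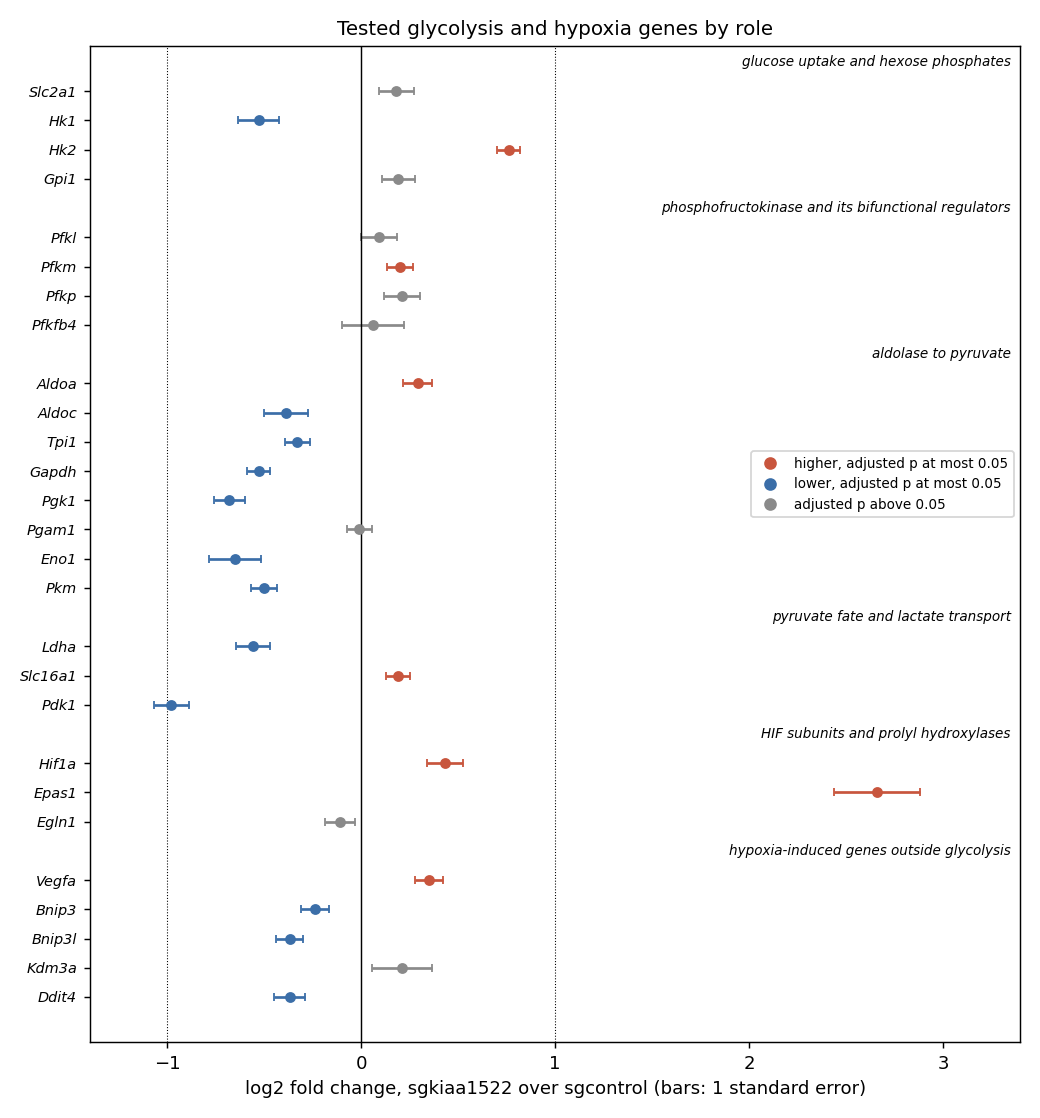
Log2FC of the 27 tested members (x axis, sgkiaa1522 over sgcontrol, bars 1 SE, dotted lines at a log2FC of 1 in size), grouped by role and coloured by whether the adjusted p was at most 0.05. Of 8 members from aldolase to pyruvate, 6 are lower by the test, and Epas1 at 2.66 is the only member to the right of these lines.

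Glucose uptake and hexose phosphates. Of these 4 genes, 1 was higher, 1 was lower and 2 did not pass, beside 26.3% of all tested genes in each direction, and the pair of hexokinases moved in opposite directions. Hk2 (chr6:82725025-82774454, minus strand of GRCm38), the hexokinase induced in many tumours and bound to the mitochondrial surface, was measured at 88.0, 84.2 and 86.0 CPM in sgcontrol and at 140.3, 149 and 149 CPM in sgkiaa1522. The groups did not overlap and the spread within each was small, and Hk2 was 1.70-fold higher (log2FC 0.76, SE 0.0593, edgeR adjusted p = 8.9e-05). Hk1, the more widely expressed hexokinase, had 200.5, 265 and 247 CPM in sgcontrol and 164, 170.0 and 159 CPM in sgkiaa1522. All sgkiaa1522 libraries lay below the lowest sgcontrol library, and Hk1 fell by 0.53 on the log2 scale (SE 0.104, edgeR adjusted p = 0.0040), or by 0.34 once the median log2FC of its chromosome was removed.

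Per exon length, Hk2 made up 38.6%, 31.2% and 33.2% of the summed Hk1 and Hk2 level in sgcontrol and 55.0%, 55.7% and 57.2% in sgkiaa1522. The mean share moved from 34.3% ± 3.79 to 56.0% ± 1.12 (SD, n = 3 each). Without the division by exon length, Hk1 stayed above Hk2 in CPM in all 6 libraries. The exact two-sided permutation test gave p = 0.1, the smallest value that 3 libraries against 3 allow, and 0.22 after Benjamini-Hochberg adjustment over the 11 shares compared.

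Slc2a1, which encodes the basal glucose transporter GLUT1, stood at 76.6, 86.9 and 95.2 CPM in sgcontrol and at 92.9, 101 and 99.6 CPM in sgkiaa1522. The highest sgcontrol library exceeded the lowest sgkiaa1522 library, and the difference did not pass (log2FC 0.18, SE 0.0902, edgeR adjusted p = 0.13), although it did without sgcontrol library 3 (0.25, adjusted p = 0.048) and with a correction for GC content (0.25, adjusted p = 0.028). Gpi1, the isomerase that turns glucose 6-phosphate into fructose 6-phosphate, had 392, 450.4 and 408 CPM against 485, 509.6 and 427 CPM. Its groups also overlapped (log2FC 0.19, SE 0.0855, edgeR adjusted p = 0.10), and it passed without sgkiaa1522 library 3 (0.26, adjusted p = 0.048) and with the GC correction (0.25, adjusted p = 0.027).

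Phosphofructokinase and its regulators. The phosphofructokinase transcripts differed little between the groups, with log2FC between 0.06 and 0.21 in the 4 tested genes. Pfkm, the muscle form and the most abundant of these per length (54.9 and 62.9 CPM per kb in sgcontrol and sgkiaa1522), had 190.3, 183 and 177 CPM against 223, 209 and 198 CPM. The groups did not overlap (log2FC 0.20, SE 0.0664, edgeR adjusted p = 0.039), but the adjusted p rose to between 0.096 and 0.12 when sgcontrol library 2 or 3 or sgkiaa1522 library 1 or 2 was left out, and the log2FC was 0.10 with the chromosome median removed. Pfkp, the platelet form, had 93.9, 100.4 and 113 CPM against 125, 123 and 109 CPM.

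The Pfkp groups overlapped and the difference did not pass (log2FC 0.21, SE 0.0907, edgeR adjusted p = 0.086), except without sgcontrol library 3 (0.28, adjusted p = 0.034). Pfkl, the liver form, had 35.9 ± 3.53 CPM in sgcontrol and 38.2 ± 0.419 CPM in sgkiaa1522 (SD, n = 3 each) with a log2FC of 0.09 (SE 0.0920, edgeR adjusted p = 0.45). With the chromosome median removed the log2FC of Pfkl was 0.28. Pfkm held 80.8% ± 2.02 of the summed level of the 3 forms per length in sgcontrol and 81.2% ± 0.368 in sgkiaa1522 (exact permutation p = 0.7), a difference within the spread between libraries.

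The bifunctional enzymes PFKFB3 and PFKFB4 set the level of fructose 2,6-bisphosphate, the strongest activator of phosphofructokinase. Pfkfb3 was under the count limit, with 41, 34 and 47 counts in sgcontrol and 61, 69 and 99 counts in sgkiaa1522. Every sgkiaa1522 library was above every sgcontrol library, and with every gene of at least 1 count in the fit its log2FC was 1.07 (edgeR adjusted p = 0.0032). Pfkfb4 had 98, 94 and 76 counts against 67, 84 and 100 counts, which overlapped (log2FC 0.06, SE 0.159, edgeR adjusted p = 0.76). The share of Pfkfb3 in the summed pair per length was 21.2%, 18.9% and 28.5% in sgcontrol and 37.0%, 34.6% and 39.0% in sgkiaa1522 (exact permutation p = 0.1, adjusted 0.22), a difference that the small counts leave imprecise.

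**Figure D2:**
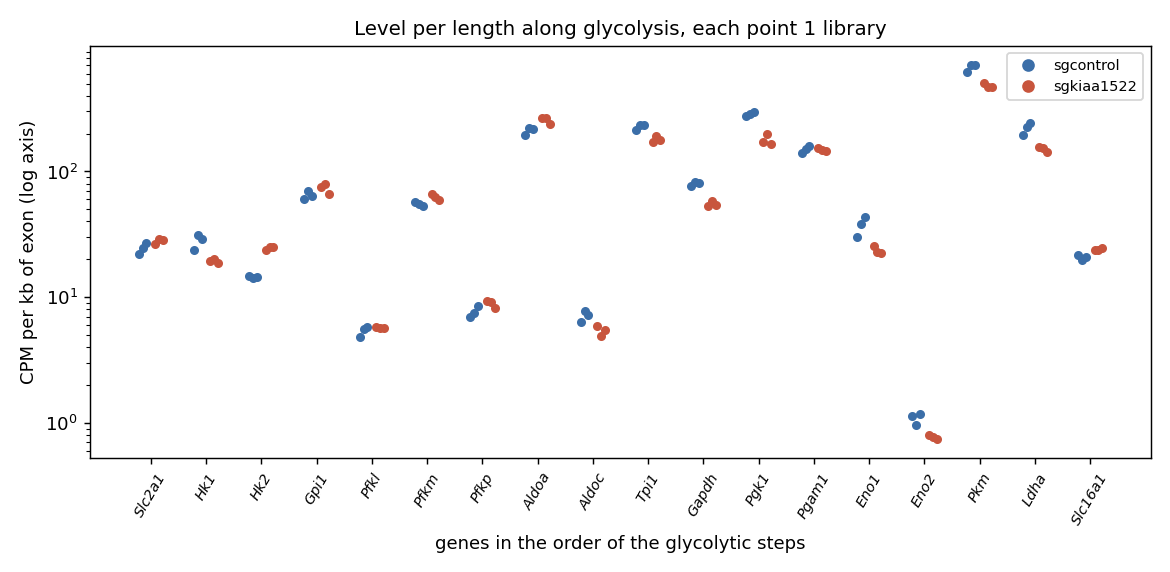
Level per exon length (y axis, CPM per kb, log axis) of 18 genes in the order of the glycolytic steps (x axis), each point 1 library. Per length, Pkm is the highest of these genes in both groups and Eno2 the lowest, and from Tpi1 to Ldha the sgkiaa1522 points lie below the sgcontrol points except at Pgam1.

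Aldolase to pyruvate. In this stretch 6 of 8 tested genes (75.0%) fell, 1 (12.5%) rose and 1 did not pass, beside 26.3% of all tested genes in each direction, and the median log2FC was -0.44. Of the 6 that fell, Gapdh, Pgk1, Eno1 and Pkm share much of their sequence with other genes, as described below. Aldoa, the main aldolase, was the gene that rose, with 565, 639.7 and 636 CPM in sgcontrol and 777, 772 and 699 CPM in sgkiaa1522 and no overlap (log2FC 0.29, SE 0.0732, edgeR adjusted p = 0.013). Aldoc, a minor aldolase best known from brain, had 20.8, 25.2 and 23.5 CPM against 19.1, 16.0 and 18.0 CPM. The separation was narrow (log2FC -0.39, SE 0.114, edgeR adjusted p = 0.022), and without sgcontrol library 2 or 3 or sgkiaa1522 library 2 or 3 the adjusted p lay between 0.052 and 0.086. Its share of the summed aldolase level per length was 3.26% ± 0.125 in sgcontrol and 2.07% ± 0.221 in sgkiaa1522 (SD, n = 3 each; exact permutation p = 0.1, adjusted 0.22).

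Tpi1, which interconverts the triose phosphates, had 593, 648 and 644 CPM in sgcontrol and 475, 529 and 493 CPM in sgkiaa1522. Its groups were separate and it fell by 0.33 on the log2 scale (SE 0.0658, edgeR adjusted p = 0.0043). Gapdh, the dehydrogenase that oxidises glyceraldehyde 3-phosphate and a gene often used as a reference in RNA assays, had 318, 338 and 333 CPM against 221, 240.4 and 223 CPM. All 3 sgkiaa1522 libraries lay far below the sgcontrol libraries, and Gapdh fell by 0.53 on the log2 scale (SE 0.0610, edgeR adjusted p = 4.0e-04), a change of -30.8%.

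Pgk1, which makes the first ATP of the pathway, stood at 622, 642 and 663 CPM in sgcontrol and at 386, 445 and 371 CPM in sgkiaa1522. It was 1.60-fold lower, with every sgkiaa1522 library far below sgcontrol (log2FC -0.68, SE 0.0784, edgeR adjusted p = 4.0e-04). Pgam1, the mutase of the next step, had 279, 299 and 314 CPM against 303, 294 and 288 CPM. These ranges overlapped, and the log2FC of -0.01 (SE 0.0638, edgeR adjusted p = 0.90) changed sign under some settings.

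Eno1, the enolase of most tissues, had 161, 206 and 234 CPM in sgcontrol and 138, 124 and 120.2 CPM in sgkiaa1522. The sgcontrol libraries were spread widely, with library 1 closest to the sgkiaa1522 libraries, but the groups did not overlap (log2FC -0.65, SE 0.134, edgeR adjusted p = 0.0051). Eno1 and the nearly identical Eno1b share 25.3% of their 50-base windows, counted on Eno1, so reads could be split between them. Eno1b moved the same way, from 344, 404 and 424 CPM to 273, 271 and 255 CPM (log2FC -0.55, SE 0.0854, edgeR adjusted p = 0.0014).

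Eno2, the neuronal enolase, was under the count limit with 93, 84 and 92 counts in sgcontrol and 46, 66 and 59 counts in sgkiaa1522. All 3 of its sgkiaa1522 libraries were lower (log2FC -0.50, edgeR adjusted p = 0.042 with every gene of at least 1 count in the fit). It made up 2.91% ± 0.653 of the summed Eno1 and Eno2 level per length in sgcontrol and 3.15% ± 0.0963 in sgkiaa1522 (SD, n = 3 each; exact permutation p = 0.6). These shares overlapped between the groups. Eno1b (208 and 142 CPM per kb in sgcontrol and sgkiaa1522) and Eno3 (151 and 75.0) were left out of the sum. Both stood above Eno1 (37.2 and 23.7), so the Eno2 share of all enolase transcripts is smaller.

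Pkm, the pyruvate kinase of most tissues and tumours, was the most abundant member at 3117, 3539 and 3537 CPM in sgcontrol and 2510.2, 2340.2 and 2369.9 CPM in sgkiaa1522. The lowest sgcontrol library lay well above the highest sgkiaa1522 library, and Pkm fell by 0.50 on the log2 scale (SE 0.0671, edgeR adjusted p = 7.8e-04). Counts per gene do not separate its M1 and M2 splice forms.

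Some of these genes have near copies in the genome. Of the 50-base windows in the transcripts of Pgk1, 53.9% also occur in those of another gene, and the shares were 47.2% for Bnip3, 36.2% for Pgam1, 26% for Eno1, 25.8% for Pkm, 25.1% for Gapdh, 20.8% for Bnip3l and 15.8% for Gpi1. The authors counted uniquely mapped fragments, so the values of these genes rest on the remaining sequence and are less certain. Leaving these 8 members out, a choice made with the values known, leaves 19, of which 6 (31.6%) were lower and 7 (36.8%) were higher, beside 26.3% of all tested genes in each direction, and in these 19 the higher members outnumber the lower. Of the 8 left out, 6 were lower, and Pdk1, Ldha, Hk1, Tpi1, Aldoc and Ddit4 were the lower members among the 19. Exons of another gene on the opposite strand overlap 22.3% of the Bnip3 exons and 11.5% of those of Gpi1, and exons of a gene on the same strand overlap 15.3% of those of Pkm and 10.2% of those of Pfkm, so reads there could belong to either gene.

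**Figure D3:**
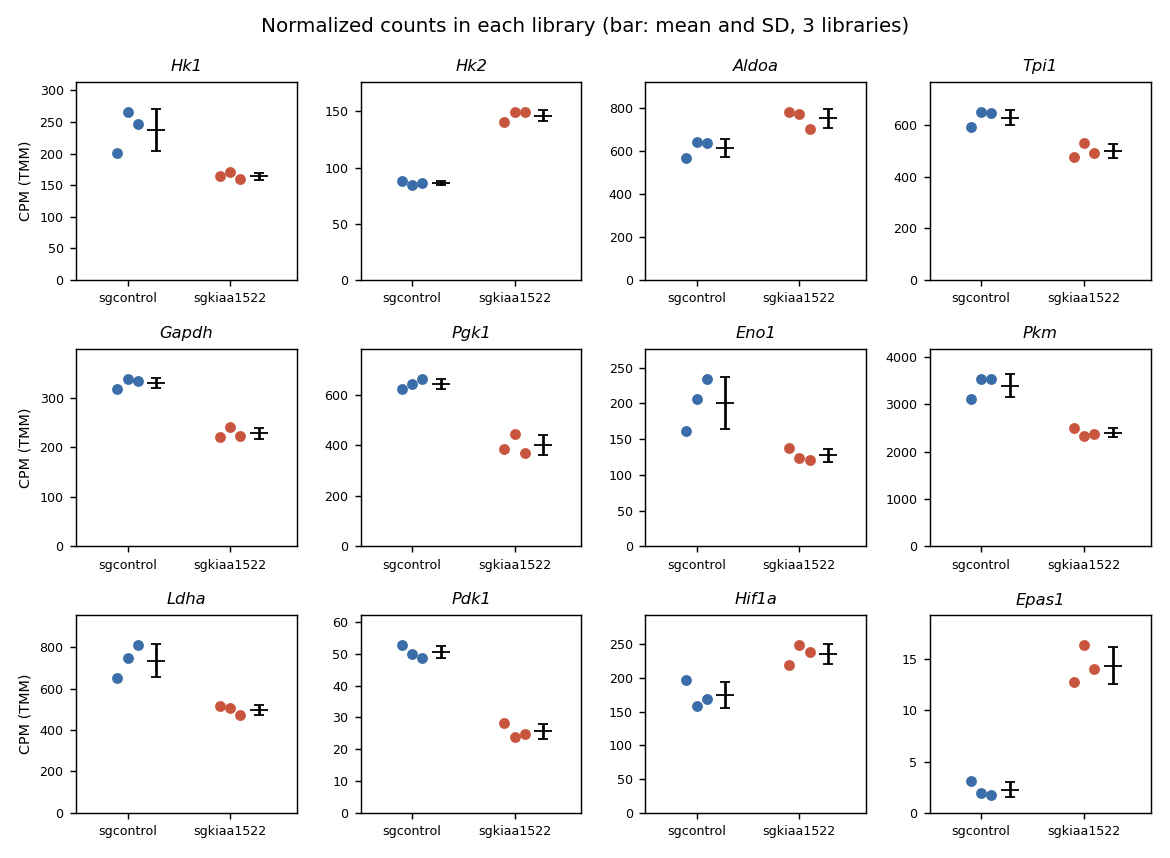
Normalized counts (y axis, CPM with TMM factors, from 0) of 12 members in each library, with the mean and SD of 3 libraries beside the points. The 2 groups are separate in every panel; Hk2, Aldoa, Hif1a and Epas1 are higher in sgkiaa1522 and the other 8 genes are lower.

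Pyruvate fate and lactate transport. Of 3 tested genes 2 fell and 1 rose, beside 26.3% of all tested genes in each direction, and those that fell include the member with the lowest log2FC of the whole list. Pdk1 (chr2:71873224-71903858, plus strand), the kinase that holds pyruvate dehydrogenase inactive, had 916, 926 and 814 counts in sgcontrol and 342, 439 and 420 in sgkiaa1522, or 50.5 ± 1.92 and 25.6 ± 2.25 CPM (SD, n = 3 each). The groups lay far apart, and Pdk1 was 1.97-fold lower (log2FC -0.98, SE 0.0899, edgeR adjusted p = 1.5e-04). This value is just inside the limit of 1, and it passed the limit without sgcontrol library 3 (-1.01) or sgkiaa1522 library 1 (-1.05).

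Ldha, the subunit of lactate dehydrogenase that favours lactate formation, had 651, 746 and 808 CPM in sgcontrol and 516, 506 and 470.0 CPM in sgkiaa1522. It was lower in every sgkiaa1522 library (log2FC -0.56, SE 0.0871, edgeR adjusted p = 0.0014). Ldhb, the subunit of oxidative tissues, had 2, 3 and 0 counts against 4, 0 and 0 counts, at or near the level of 3 counts that a count of 0 allows, which is 0.162 to 0.247 CPM. Lactate dehydrogenase transcripts of these cells were thus almost all Ldha in both groups, with a mean Ldhb share per length of 0.0276% in sgcontrol and 0.0448% in sgkiaa1522.

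Slc16a1, which encodes the lactate transporter MCT1, had 96.5, 87.8 and 92.4 CPM against 104, 104 and 108 CPM. The difference was small although the groups did not overlap (log2FC 0.19, SE 0.0632, edgeR adjusted p = 0.035), and leaving out any library but sgcontrol library 1 raised the adjusted p to between 0.068 and 0.14. With the GC correction its log2FC was 0.12 (edgeR adjusted p = 0.11), with the chromosome median removed 0.31, and edgeR's likelihood ratio test gave an adjusted p of 0.077. Slc16a3, which encodes MCT4, the lactate exporter of strongly glycolytic cells, had 0 counts in 5 libraries and 6 counts in sgkiaa1522 library 1. MCT4 was thus not detectable at this depth in 5 of the 6 libraries.

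**Figure D4:**
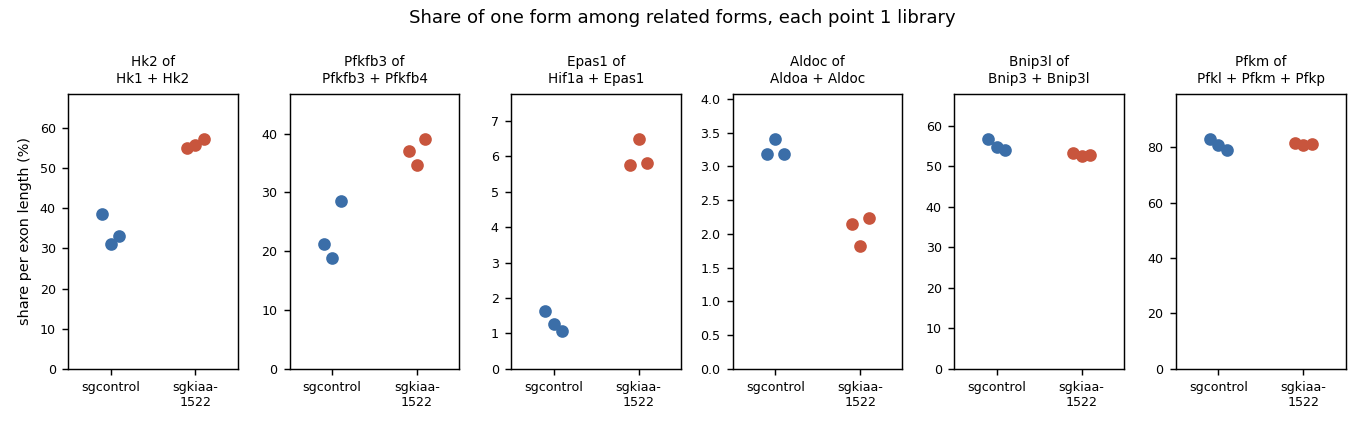
Share of 1 form in the summed level of its related forms (y axes, percent per exon length, from 0), each point 1 library. The Hk2 share moves from 34.3% to 56.0% and the Epas1 share from 1.33% to 6.02%, while the Pfkm share stays near 81.2%.

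HIF subunits and prolyl hydroxylases. Of 3 tested genes 2 were higher in sgkiaa1522 and 1 did not pass, beside 26.3% of all tested genes higher. These 2 were the alpha subunits, of which Epas1 passed the count limit only through the group in which it is high. Hif1a, the widely expressed subunit whose protein is controlled mainly by degradation, had 197, 159 and 168 CPM in sgcontrol and 219, 248 and 239 CPM in sgkiaa1522. Its groups were separate (log2FC 0.43, SE 0.0932, edgeR adjusted p = 0.0063). Epas1 (chr17:86753700-86833410, plus strand), which encodes HIF-2 alpha, had 54, 36 and 29 counts against 154, 299 and 238 counts, or 3.10, 1.94 and 1.74 CPM against 12.7, 16.3 and 14.0 CPM.

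Epas1 was 6.34-fold higher (log2FC 2.66, SE 0.224, edgeR adjusted p = 1.1e-04), from a low level that makes it less precise than the other tested members, and its log2FC lay between 2.51 and 2.95 with any library left out. It remained the minor subunit by transcript: its share of the summed Hif1a and Epas1 level per length was 1.64%, 1.27% and 1.08% in sgcontrol and 5.76%, 6.48% and 5.82% in sgkiaa1522 (exact permutation p = 0.1, adjusted 0.22). Of the markers of endothelium, in which Epas1 is well known, Vwf was also higher in sgkiaa1522. The means of Pecam1 were 0.707 CPM in sgcontrol and 0.837 CPM in sgkiaa1522, and Kdr, Cdh5, Tek and Cldn5 had at most 5 counts in any library. Whether these markers bear on Epas1 was not tested.

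Egln1, which encodes the main prolyl hydroxylase PHD2 that marks HIF alpha for degradation, had 88.9 ± 7.95 CPM in sgcontrol and 82.4 ± 1.39 CPM in sgkiaa1522 (SD, n = 3 each). The values overlapped and did not pass (log2FC -0.11, SE 0.0786, edgeR adjusted p = 0.28). Egln3, which encodes the hypoxia-induced PHD3, had 0 counts in all 6 libraries, which allows up to 0.162 to 0.247 CPM.

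Hypoxia-induced genes outside glycolysis. Among the 5 tested genes of this group 3 fell, 1 rose and 1 did not pass, beside 26.3% of all tested genes in each direction. Vegfa, the angiogenic growth factor, had 230.4, 264 and 267 CPM in sgcontrol and 319, 327 and 326 CPM in sgkiaa1522, and it was higher in every sgkiaa1522 library (log2FC 0.35, SE 0.0710, edgeR adjusted p = 0.0046). Ddit4, which encodes REDD1, an inhibitor of mTORC1, had 33.3, 36.6 and 34.8 CPM against 26.0, 27.2 and 27.6 CPM. It fell without overlap (log2FC -0.37, SE 0.0794, edgeR adjusted p = 0.0061), by 0.18 on the log2 scale once the median of its chromosome was removed.

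The mitophagy receptors Bnip3l and Bnip3 were both lower. Bnip3l had 135, 118 and 126 CPM in sgcontrol and 97.5, 98.1 and 97.2 CPM in sgkiaa1522 (log2FC -0.37, SE 0.0679, edgeR adjusted p = 0.0031). The median log2FC over the 343 tested genes of chromosome 14, where Bnip3l lies, was -0.38, and relative to that median the log2FC of Bnip3l was 0.01. Bnip3 had 60.8, 57.2 and 63.1 CPM against 50.2, 51.9 and 51.2 CPM (log2FC -0.24, SE 0.0732, edgeR adjusted p = 0.027). The Bnip3 call was lost, with an adjusted p of 0.070 to 0.078, without sgcontrol library 3 or any sgkiaa1522 library.

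Kdm3a, a histone demethylase induced by HIF, had 96.7, 83.7 and 62.2 CPM in sgcontrol and 88.4, 89.4 and 103 CPM in sgkiaa1522. The sgcontrol libraries spanned a wide range that held most of the sgkiaa1522 values (log2FC 0.21, SE 0.155, edgeR adjusted p = 0.28). Car9, which encodes the carbonic anhydrase used as a marker of hypoxic tumour cells, had 38, 44 and 36 counts against 28, 40 and 41 counts and showed no separation (log2FC 0.04, edgeR adjusted p = 0.90 with every gene of at least 1 count in the fit). Ndrg1, another gene often used as a hypoxia marker, had 1 count in sgcontrol library 1 and in sgkiaa1522 library 1 and 0 in the other libraries.

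Ankrd37, a small ankyrin repeat protein induced by HIF, had 56, 66 and 53 counts against 24, 36 and 27 counts and was lower in each sgkiaa1522 library (log2FC -0.84, edgeR adjusted p = 0.0084 in the same fit). Exons of Lrp2bp on the opposite strand overlap 22.7% of the Ankrd37 exons, and reads there cannot be told apart if strand was not used. Adm, which encodes the vasodilator peptide adrenomedullin, had 1, 3 and 2 counts in sgcontrol and 23, 29 and 21 counts in sgkiaa1522. Against 3 counts in each sgcontrol library it was at least 9.17-fold higher, at a level of 1.89, 1.58 and 1.24 CPM. Known HIF targets thus moved in both directions in these libraries.

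The core of the HIF binding site, ACGTG or GCGTG, was searched on both strands in RefSeq promoter windows of GRCm38.p6 that run from 250 bases before a gene's start to 50 after it. Such windows were found for 33 of the 36 members, and not for Epas1, Ndrg1 and Bnip3l. At least 1 ACGTG was present in the windows of 22 of the 33 members (66.7%), beside 30.5% of tested genes and 21.8% of all genes with a window, and GCGTG in 66.7%, 59.4% and 35.2%. ACGTG includes the E-box CACGTG, which was present in 18.2% of the members, 12.3% of tested genes and 8.09% of all genes. Among members with a window, ACGTG was found in 8 of 11 that fell, 6 of 6 that rose and 3 of 8 that did not pass. GCGTG was found in 8 of 11, 3 of 6 and 7 of 8, and either core in 10 of 11, 6 of 6 and 7 of 8, beside 70.8% of tested genes with either core.

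The 250 bases before the start are shown for the member with the lowest log2FC (Pdk1), for Ldha and Pgk1, which also fell, and for Hk2, which rose, with the core motifs in capitals and each sequence written 5′ to 3′ on the strand of the gene. The Pdk1 window is chr2:71872974-71873223 on the plus strand and holds a single GCGTG, 78 bases before the start. The Ldha window is chr7:46845554-46845803 on the plus strand, inside the extent that GENCODE M21 gives the gene but outside its exons, and holds 5 ACGTG matches, counting both strands, at 145, 144, 48, 47 and 34 bases, of which the first 4 form 2 copies of CACGTG. The Pgk1 window is chrX:106186850-106187099 on the plus strand, with matches at 150 and 131 bases. The Hk2 window is chr6:82774455-82774704 on the minus strand, with matches at 226 and 52 bases. On the printed strand a match to the other strand reads CACGT. A match describes the letters in the window and is not evidence of binding.
Pdk1: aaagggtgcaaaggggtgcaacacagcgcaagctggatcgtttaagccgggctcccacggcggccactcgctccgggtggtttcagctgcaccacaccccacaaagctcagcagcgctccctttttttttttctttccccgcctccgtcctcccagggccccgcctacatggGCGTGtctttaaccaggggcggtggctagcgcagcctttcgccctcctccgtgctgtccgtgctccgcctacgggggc
Ldha: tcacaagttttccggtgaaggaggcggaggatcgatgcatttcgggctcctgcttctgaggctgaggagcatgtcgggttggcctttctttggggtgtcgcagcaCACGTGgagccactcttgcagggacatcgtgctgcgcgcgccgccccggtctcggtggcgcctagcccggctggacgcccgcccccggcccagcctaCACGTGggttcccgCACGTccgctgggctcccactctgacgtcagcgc
Pgk1: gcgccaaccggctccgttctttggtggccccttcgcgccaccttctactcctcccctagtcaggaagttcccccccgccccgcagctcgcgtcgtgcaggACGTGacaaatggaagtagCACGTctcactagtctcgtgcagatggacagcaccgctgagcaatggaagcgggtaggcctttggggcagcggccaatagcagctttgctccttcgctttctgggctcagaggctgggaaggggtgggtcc
Hk2: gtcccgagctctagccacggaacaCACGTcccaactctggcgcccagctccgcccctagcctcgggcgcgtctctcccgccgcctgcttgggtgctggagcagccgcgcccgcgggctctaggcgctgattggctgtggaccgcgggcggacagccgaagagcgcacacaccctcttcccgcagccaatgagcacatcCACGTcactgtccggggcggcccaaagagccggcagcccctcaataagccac

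Beyond the members, 4 further lists of the same pathways were counted. Of 96 tested genes in the 4 lists together, 27 (28.1%) were higher and 26 (27.1%) were lower at an adjusted p of at most 0.05 by edgeR, close to the 26.3% and 26.3% of all tested genes. Past the limit on the fold there were 6 higher and 5 lower, beside 2.74% and 4.34% of all tested genes, and the median log2FC was 0.02.

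Of 27 other tested genes of glycolysis and pyruvate handling, 8 (29.6%) were higher and 10 (37.0%) lower, beside 26.3% of all tested genes in each direction, with a median log2FC of -0.05. Past the limit on the fold were 2 and 3 of them, beside 2.74% and 4.34% of all tested genes. Slc2a3, which encodes the high-affinity glucose transporter GLUT3, had 6.94, 8.04 and 9.18 CPM in sgcontrol and 19.1, 20.3 and 21.3 CPM in sgkiaa1522 (log2FC 1.33, SE 0.127, edgeR adjusted p = 1.8e-04). Tigar, a phosphatase that lowers fructose 2,6-bisphosphate, had 17.5, 17.3 and 18.5 CPM against 40.6, 35.7 and 40.3 CPM (log2FC 1.13, SE 0.0904, edgeR adjusted p = 9.8e-05). Both were clearly separate between the groups.

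Past the limit in the other direction stood Bsg, Eno3 and Pfkfb2. Bsg encodes basigin, the chaperone that brings MCT1 and MCT4 to the membrane, and had 305, 339.6 and 399.8 CPM in sgcontrol and 207, 148 and 141 CPM in sgkiaa1522 (log2FC -1.08, SE 0.164, edgeR adjusted p = 0.0013). Eno3, the muscle enolase, had 234, 254 and 300.0 CPM against 143, 124 and 124 CPM (log2FC -1.01, SE 0.107, edgeR adjusted p = 2.7e-04). Pfkfb2, a further bifunctional regulator, had 18.1, 16.3 and 13.4 CPM against 6.76, 8.56 and 8.36 CPM (log2FC -1.01, SE 0.153, edgeR adjusted p = 0.0013). All 3 lay close to the limit. The log2FC of Bsg was -0.97 without sgcontrol library 3 or sgkiaa1522 library 3 and -0.89 with the chromosome median removed. That of Eno3 was -0.91 without sgcontrol library 3, -0.97 or -0.98 without sgkiaa1522 library 2 or 3, and -0.95 with the GC correction. That of Pfkfb2 was -0.92 without library 1 of either group and -0.80 with the chromosome median removed. Eno1, Eno1b and Eno3 were lower by the test, beside 26.3% of all tested genes. Eno2, under the count limit, lay lower in every sgkiaa1522 library, beside 31.1% of all tested genes. Because Eno1 and Eno1b share sequence, these 4 enolase genes are not independent observations.

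The pentose phosphate pathway, which branches off at glucose 6-phosphate and yields NADPH, had 10 tested genes, of which 1 was higher and 3 (30.0%) were lower, beside 26.3% of all tested genes in each direction, with none past the limit on the fold, and the median log2FC was -0.06. G6pdx, its rate-limiting dehydrogenase, had 116 ± 2.65 CPM in sgcontrol and 118 ± 2.40 CPM in sgkiaa1522 (SD, n = 3 each; log2FC 0.03, SE 0.0564, edgeR adjusted p = 0.71). Of 17 tested genes of oxygen sensing, 6 (35.3%) were higher and 3 (17.6%) lower, also with none past the limit and a median log2FC of 0.07. Vhl, whose product targets hydroxylated HIF alpha for degradation, had a log2FC of 0.02 (SE 0.0735, edgeR adjusted p = 0.84), and Arnt, the partner of the alpha subunits, one of -0.05 (SE 0.0989, edgeR adjusted p = 0.69).

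Of 43 other hypoxia-induced genes, 12 (27.9%) were higher and 10 (23.3%) lower, close to the 26.3% of all tested genes in each direction, with a median log2FC of 0.05. Past the limit on the fold were 4 and 2 of them, beside 2.74% and 4.34% of all tested genes. Those past the limit and higher were Stc1, Bhlhe41, Pgf and Stc2 (log2FC 1.31), and the 3 with the largest log2FC are given by library. Stc1 (22 counts over the sgcontrol libraries and 1325 over the sgkiaa1522 libraries) and Bhlhe41 (108 and 1847) passed the limit of 500 counts only through the group in which they are high, so that their calls give no support for the list. Stc1, which encodes the secreted glycoprotein stanniocalcin 1, had 4, 15 and 3 counts in sgcontrol and 328, 474 and 523 counts in sgkiaa1522 (log2FC 6.04, SE 0.340, edgeR adjusted p = 2.8e-05). Bhlhe41, a transcriptional repressor of the circadian clock, had 2.24, 1.62 and 2.34 CPM against 36.9, 36.9 and 42.6 CPM (log2FC 4.23, SE 0.156, edgeR adjusted p = 8.4e-06). Pgf, a growth factor of the VEGF family, had 17.6, 17.8 and 18.5 CPM against 56.0, 47.6 and 55.0 CPM (log2FC 1.56, SE 0.0919, edgeR adjusted p = 3.3e-05).

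In the other direction, Tfrc, the transferrin receptor, had 208, 185 and 202 CPM in sgcontrol and 54.1, 49.6 and 54.5 CPM in sgkiaa1522 (log2FC -1.91, SE 0.0749, edgeR adjusted p = 8.4e-06). Selenbp1, a selenium-binding protein, had 628, 763 and 712 counts against 226, 351 and 325 counts (log2FC -1.07, SE 0.0929, edgeR adjusted p = 1.3e-04). With the chromosome median removed the log2FC of Selenbp1 was -0.95, inside the limit.

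**Figure D5:**
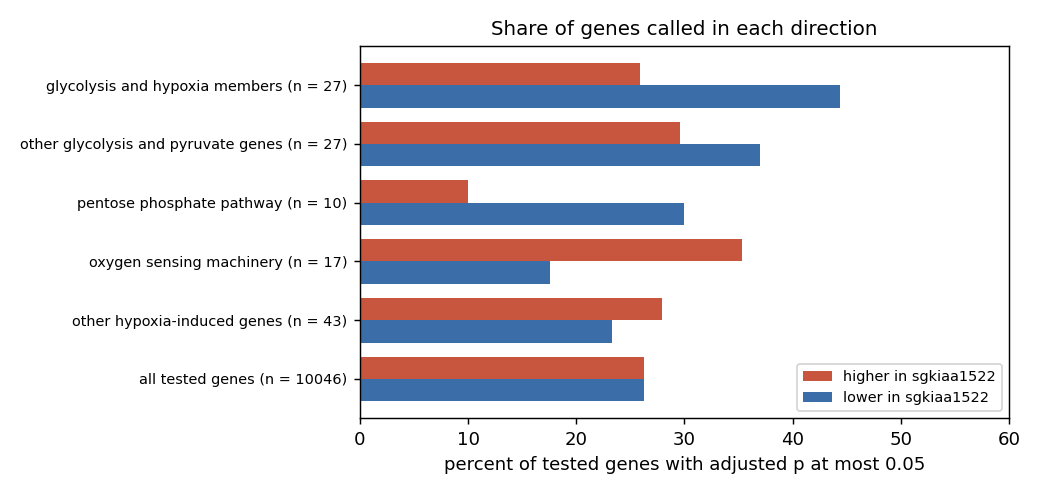
Percent of tested genes (x axis) with an adjusted p of at most 0.05 in each direction, for the 27 tested members, 4 further lists and all 10046 tested genes. The members are 44.4% lower and 25.9% higher, and all tested genes 26.3% in each direction.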

How the data were processed

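RNA of 889 cells was sequenced in 3 sgcontrol and 3 sgkiaa1522 libraries. The authors used Seqtk to remove adaptors and rRNA reads, aligned what remained to GRCm38 with HISAT2 2.0.4 and counted uniquely mapped fragments with StringTie 1.3.0, and deposited whole-number counts per gene without normalization. The annotation release and the use of strand were not given in the sources used here. Of 34745 gene identifiers, 34344 matched GENCODE M21, which gave exon lengths, positions and shared 50-base windows.

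Genes with more than 500 counts were tested by edgeR 4.0.16 in R 4.3.3 (quasi-likelihood test, TMM factors, no covariates, Benjamini-Hochberg adjustment over all 10046 tested genes). CPM are TMM-normalized, and SDs are over 3 libraries. No source says that the libraries came from separate cultures, so p-values measure the spread between these libraries, which may be technical. Counting limits (3 counts) cover counting error only. Shares of related forms were compared by exact two-sided permutation tests. Members and lists were chosen with earlier results of these data known. Values per library are given for the 12 members with the largest log2FC in size at an adjusted p of at most 0.05, for genes that define a role and for related forms, and other lists are named past a log2FC of 1 in size, at most 3 a direction. Vhl, Arnt, G6pdx and Eno1b were named after their values were seen. The alternatives, DESeq2 1.42.0 among them, are given at the end, and the tests were checked on simulated data.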

Additional observations from a re-analysis of the deposited data

How the results depend on the processing

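Leaving aside the setting with the chromosome median removed, which changes the fold and has no p of its own, 357 of the members' values under the alternatives kept their direction and their side of the threshold, 31 lost the call (Pfkm, Aldoc, Slc16a1 and Bnip3), 7 gained it (Slc2a1, Gpi1 and Pfkp) and 4 changed direction. The latter were all of Pgam1, at 0.05 with a GC correction, 0.05 with a replicate block and GC correction, and from -0.07 to 0.03 with a library left out (above 0 without sgcontrol replicate 3 or sgkiaa1522 replicate 3). Bnip3l was at 0.01 with the chromosome median removed. Members past the fold limit and higher numbered 3 with filterByExpr, 3 with every gene of at least 1 count (Adm and Pfkfb3 were added) and 2 at a 1.5-fold limit; members lower numbered 0 to 1 with a library left out, 1 with the chromosome median removed and 3 at 1.5-fold. The members lower at an adjusted p numbered 6 without those sharing over 10% of their windows. In the 4 lists together, genes past the limit and lower numbered 3 to 5 with a library left out (3 without sgcontrol replicate 3 or sgkiaa1522 replicate 3), 1 with the chromosome median removed and 15 at 1.5-fold, and genes higher 12 at 1.5-fold. The members' median log2FC was 0.05 with the GC correction, 0.05 with the block and GC correction, 0.01 with the chromosome median removed, and -0.11 to -0.01 with a library left out. The share differences lay between -0.624 and 1.40 points for Pfkm, between -0.384 and 0.811 for Pfkp and between -0.0276 and 0.0396 for Ldhb with a library left out. Among all genes, 275 higher and 436 lower past the limit became 607 and 812 with filterByExpr and 767 and 941 with every gene. With the replicate number as a block, 10 of the 27 members were lower and 5 higher, beside 2111 and 2109 of all 10046 tested genes; libraries of the same number did not deviate together (correlations across genes of -0.229, -0.0530 and -0.170), so the numbers do not pair the libraries. The causes of these shifts were not tested. The 9 members with no more than 500 counts have less precise values.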
